A study of Mus musculus with 4 samples.

Results

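Thrombospondins, tenascins, periostin, SPARC and osteopontin are matricellular proteins, that is, secreted proteins that sit in the extracellular matrix and tune how cells attach, move and respond to growth factors. The 10 genes described here (Thbs1, Thbs2, Thbs3, Thbs4, Comp, Tnc, Tnxb, Postn, Sparc and Spp1) were chosen by name from the 46095 gene symbols counted in mouse colon, and all 10 had counts. The set was proposed with earlier results of the same comparison in view. The fold changes and calls below are therefore a description of these libraries, and nothing is inferred from how many of the 10 differed.

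The libraries came from colon of C57BL/6 mice at postnatal day 21, with 2 libraries of wild type mice (WT) and 2 of Esr2-/- mice (Esr2-KO), which lack the gene of estrogen receptor β. No library received a treatment according to the labels. The design text speaks of triplicates, and no label tells whether libraries of a genotype came from separate animals or which part of Esr2 was deleted. Each p-value thus reflects only how far these 4 libraries scatter, which may be technical. The series title concerns colitis and autophagy, and the comparison asks which transcripts of the colon differ when Esr2 is lost.

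Thrombospondins fall into trimers (Thbs1 and Thbs2), which can inhibit the growth of blood vessels through the receptor CD36, and pentamers (Thbs3, Thbs4 and Comp), which bind collagens and calcium. Thbs1 also activates latent TGF-β, a growth factor that drives matrix production. Tenascin C is deposited during development and wound healing, and tenascin X helps to organise collagen fibrils. In the gut these proteins are made mostly by fibroblasts and muscle cells beneath the epithelium.

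Totals ran from 30826790 to 33709643 counts per library. Esr2 itself had 21 and 13 counts in WT against 6 and 16 in Esr2-KO, so that the groups overlapped, and with the deleted part unknown these counts check no label. Epithelial transcripts were abundant in every library, with summed levels of 9 epithelial markers from 11180 to 12364 CPM (the count divided by the scaled library total, times 1000000). Among them Cdx1 stood at 305 and 287 CPM in WT against 379 and 406 in Esr2-KO, higher but not called. Of those 9, the intestinal transcription factor Cdx2 was lower in Esr2-KO (-2.03 ± 0.34, log2 fold change ± SE), a call that ended without WT 1 (adjusted p = 0.105) or without WT 2 (0.0565). Esr2-KO 2 stood apart, since genes of the acinar pancreas took 22.4% of its counts, against 0.821% to 0.946% in the other libraries, and without Zg16 21.6% against 0.258% and 0.292% in WT and 0.408% in Esr2-KO 1. Between 0.529% and 0.731% of every library was Zg16, a member of that list that colonic goblet cells also make.

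The promoters of Thbs4, Thbs3 and Tnc are shown because Thbs4 and Tnc differed between the genotypes in opposite directions, while Thbs3, the other pentameric thrombospondin with an appreciable level, was not called. They are RefSeq windows of 300 bases on GRCm38.p6, written 5′ to 3′ along the gene's strand, and capitals mark GC boxes (GGGCGG or its reverse complement) and TATA boxes (TATAAA or its reverse complement). Of the 10 genes, 8 had such a window in the table, which does not list Thbs1 and Comp. Tnc, Postn and Spp1 had more than 1 start listed, and a single window of Tnc is printed.
Thbs4, chr13:92794769-92795068, minus strand: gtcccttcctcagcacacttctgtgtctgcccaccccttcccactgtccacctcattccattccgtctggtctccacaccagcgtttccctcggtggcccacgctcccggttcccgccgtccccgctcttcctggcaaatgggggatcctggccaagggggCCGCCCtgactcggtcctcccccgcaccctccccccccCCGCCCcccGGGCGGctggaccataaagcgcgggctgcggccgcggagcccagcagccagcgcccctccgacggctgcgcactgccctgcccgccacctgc
Thbs3, chr3:89214930-89215229, plus strand: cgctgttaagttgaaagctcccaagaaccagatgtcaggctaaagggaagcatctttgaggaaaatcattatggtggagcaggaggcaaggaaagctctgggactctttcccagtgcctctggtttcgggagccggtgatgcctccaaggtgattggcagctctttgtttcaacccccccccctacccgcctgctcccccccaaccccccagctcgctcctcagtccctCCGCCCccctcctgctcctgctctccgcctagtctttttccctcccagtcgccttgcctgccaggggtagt
Tnc, chr4:64046966-64047265, minus strand: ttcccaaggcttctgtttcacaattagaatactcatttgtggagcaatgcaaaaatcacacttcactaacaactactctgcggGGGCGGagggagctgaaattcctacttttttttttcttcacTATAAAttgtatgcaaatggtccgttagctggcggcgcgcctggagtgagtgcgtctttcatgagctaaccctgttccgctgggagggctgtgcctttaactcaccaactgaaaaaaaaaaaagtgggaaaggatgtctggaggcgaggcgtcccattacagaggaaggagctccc

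The Thbs4 window held 3 GC boxes, at positions -89, -51 and -42 from the annotated start, and 72.0% G or C. The Thbs3 window held 1 GC box at -21, with 59.0% G or C. The Tnc window held 1 GC box at -167 and a TATA box at -126, with 47.3% G or C. A GC box was found in 35.7% and a TATA box in 13.6% of 32851 windows of the same length, on either strand. The palindromic estrogen response element (GGTCA, then any 3 bases, then TGACC) was found in 0.07% of the windows and in none of those of the 8 genes. A single arm of it (GGTCA) was found in 40.5% of the windows, and among the 8 genes in those of Tnxb, Postn and Sparc. For Postn it lay in the window that begins at 54359017, upstream of the gene's start at 54361109. The window at that start, from 54360857, held none. The Sparc window (55420031 to 55420330, minus strand) lies inside the gene, whose 5′ end is at 55423183. The windows were also searched on both strands for the AP-1 site (TGANTCA), in 7.81% of windows and here in Tnxb, and for the E-box (CACGTG) and the CArG box, in 7.15% and 1.63% of windows and in those of none of the 8 genes. These matches are letters in a window and do not show binding.

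Before any comparison, the levels in WT colon give the make-up of the set. Sparc, which encodes a collagen-binding glycoprotein, and Postn, which encodes periostin, a cross-linking partner of collagen fibres, dominated it. Per kilobase of the principal transcript (APPRIS, from GENCODE M21), Sparc stood at 250.2 and 265 CPM per kb in the WT libraries and Postn at 133 and 126. Sparc made up 57.7% of the summed level of the 10 genes and Postn 29.1%, and they lay at the 98.5th and 96.6th percentile of 15936 tested genes with a length.

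Below them came Thbs4 at 21.1 and 23.6 CPM per kb, Tnc at 16.0 and 14.6, and Thbs1 at 13.4 and 10.4. Neighbours among these first 5 did not overlap between the WT libraries. Thbs3 (4.60 and 4.39) and Thbs2 (4.33 and 3.56) followed without overlap, although their order turned when the length of all exons together was used (2.97 for Thbs3 and 3.32 for Thbs2, as means of the 2 WT libraries). Spp1, the gene of osteopontin, reached 0.548 and 0.706 CPM per kb. Comp (0.0798 and 0.143) and Tnxb (0.0902 and 0.129) overlapped at the bottom of the order, near the 2nd percentile of tested genes (2.08 and 2.03). With all exons in place of the principal transcript, Sparc, Postn, Thbs4, Tnc and Thbs1 kept this order, with Postn at 47.5 and Sparc at 156 CPM per kb as WT means.

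Thbs4 was higher in Esr2-KO colon, Thbs1 and Tnc were lower, and the other 7 genes did not pass the threshold. Across all 17169 genes tested with edgeR's quasi-likelihood test, 2.69% passed a Benjamini-Hochberg adjusted p of 0.05, with 1.3% higher and 1.39% lower in Esr2-KO. Of the 10 genes 3 passed, 1 higher and 2 lower, and since the set was proposed with this contrast in view nothing is read from that count. With library totals in place of TMM scaling (edgeR's trimmed mean of M-values), the split of all calls moved from 223 higher and 239 lower to 208 higher and 487 lower, and the median log2 fold change of all tested genes from 0.00 to -0.17. The same 3 genes were called there, with the same directions, and Spp1 was called as well. With other tests in place of edgeR's, DESeq2 called 1682 of the 25515 genes with a count and limma-voom 606 of 17169. Counts by limma-voom in the lists below are read against its share. The 25515 genes of DESeq2 include those below edgeR's low-count filter, while the lists below are given over genes that passed it. The DESeq2 share among filtered genes was not computed, so the list counts by DESeq2 are a description only.

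**Figure D1:**
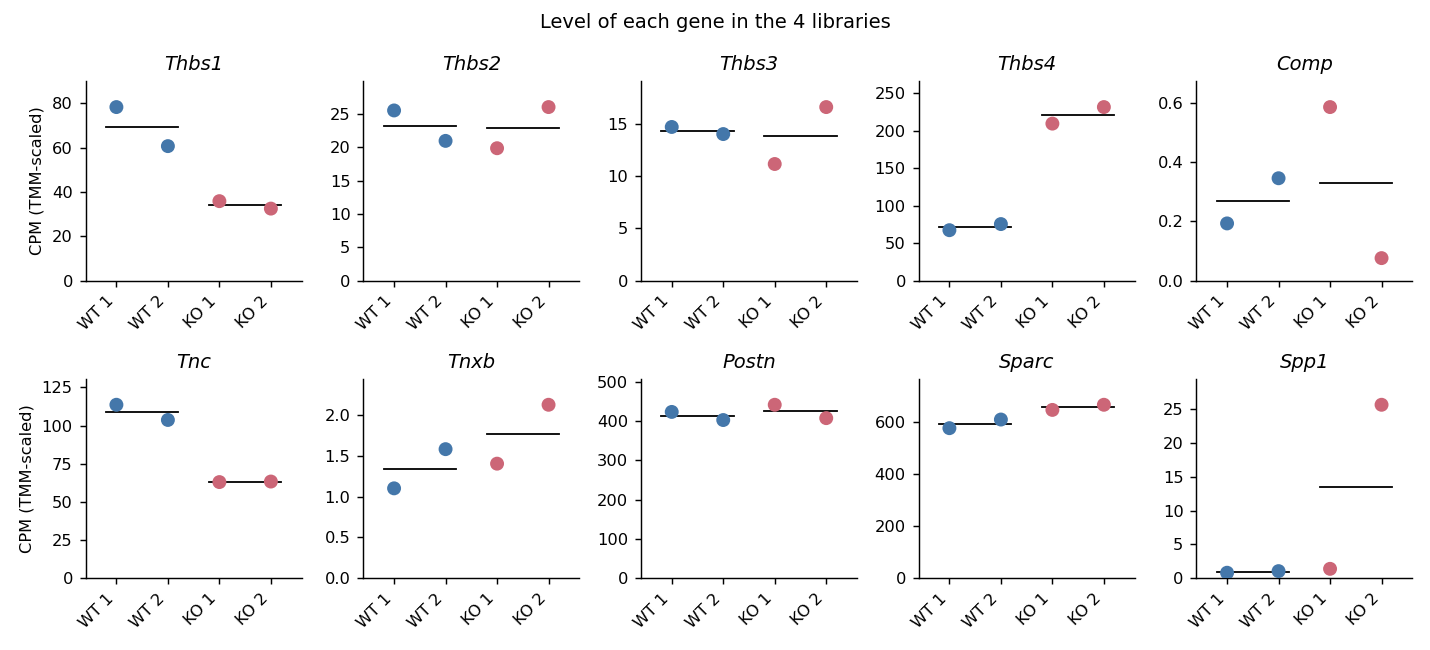
Level of the 10 genes in each library, in CPM on linear axes that start at 0 (blue, WT, red, Esr2-KO, black lines, group means of 2 libraries). Thbs4 was higher and Thbs1 and Tnc lower in both Esr2-KO libraries, while Spp1 stood out in Esr2-KO 2 alone.

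Thbs4, a pentameric thrombospondin also known from tendon and muscle, was counted 2447 and 2628 times in the WT libraries and 7173 and 6111 times in the Esr2-KO libraries. As scaled levels these were 67.4 and 75.5 CPM in WT against 210 and 232 CPM in Esr2-KO. Both Esr2-KO libraries lay far above both WT libraries, and the libraries of a genotype differed by at most 1.12-fold. The means were 71.5 ± 5.77 CPM in WT and 221 ± 15.6 CPM in Esr2-KO (SD, n = 2 each), a ratio of 3.09. The fit put the log2 fold change at 1.63 ± 0.13 (SE), and edgeR's adjusted p at 0.0125. It was larger in size than that of 95.4% of all tested genes. Over 12 alternative settings it ran from 1.46 to 1.73, and Thbs4 was called in all 12. The gene lies on chromosome 13 from 92751590 to 92794818 (GRCm38, minus strand), and no other gene of GENCODE M21 shares exon bases with it.

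Thbs1, the trimeric thrombospondin that activates latent TGF-β, went the other way. It had 2845 and 2112 counts in WT against 1227 and 857 in the knockout, or 78.3 and 60.7 CPM against 35.9 and 32.5 CPM. The groups did not overlap, but WT 1 was 1.29-fold above WT 2. The mean fell from 69.5 ± 12.5 CPM to 34.2 ± 2.38 CPM (SD, n = 2 each), a ratio of 0.492. The log2 fold change came to -1.02 ± 0.15 (SE), and edgeR's adjusted p to 0.0300. Without WT 1 it was -0.83 and the call ended (edgeR adjusted p = 0.114). Thbs1 (chromosome 2, 118111876 to 118127133) shares 208 exon bases, or 3.42% of its exons, with the long noncoding RNA gene Gm29233 on the opposite strand, and the use of strand in counting is not given.

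Thbs2, the other trimeric member, which is known for its part in collagen fibril assembly, showed no such fall. Its levels were 25.6 and 21.0 CPM in WT against 19.9 and 26.1 CPM in Esr2-KO, with overlapping groups and a log2 fold change of -0.02 ± 0.19. The direction turned without WT 1 (0.13) and without Esr2-KO 1 (0.17). Per length, Thbs1 exceeded Thbs2 by a ratio of 3.09 and 2.92 in the WT libraries and of 1.82 and 1.26 in the Esr2-KO libraries.

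Thbs3 also overlapped between the groups, at 14.7 and 14.0 CPM in WT against 11.1 and 16.6 CPM in Esr2-KO (-0.05 ± 0.23), and turned to 0.21 without Esr2-KO 1. It shares 318 exon bases, or 6.59%, with Mtx1 on the opposite strand. Comp, the cartilage oligomeric matrix protein, had 7 and 12 counts in WT against 20 and 2 in Esr2-KO. The lowest and the highest value were both in Esr2-KO, and the log2 fold change of 0.35 ± 0.96 turned without WT 1 (-0.03), without Esr2-KO 1 (-1.77) and with limma-voom (-0.076), so that no difference was detectable at this depth. Of 4 cartilage markers, Acan and Matn3 had no count in any library and Col2a1 had 2 counts, both in WT 1, while Chad was at 0.606 and 1.26 CPM in WT against 2.16 and 1.67 in Esr2-KO, higher in both but not called (1.04 ± 0.49, edgeR adjusted p = 0.296). A count of 0 allows up to 0.114 CPM, the level of 3 counts in the shallowest library.

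The mixture of thrombospondins thus differed between the WT and the Esr2-KO libraries. Their summed level was 43.5 and 42.1 CPM per kb in WT against 78.8 and 87.7 in Esr2-KO, and Thbs4 supplied the added amount. Within a library, the ratio of Thbs4 to Thbs1 per length was 1.57 and 2.28 in WT against 10.7 and 13.0 in Esr2-KO. Since Thbs4 was higher and Thbs1 lower in both Esr2-KO libraries, the separation of this ratio was given in advance and adds no support. The ratio of Thbs4 to Thbs3 was 4.58 and 5.38 in WT against 18.8 and 13.9 in Esr2-KO. These ratios are free of library scaling and show unequal change of the genes, not which of them changed.

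**Figure D2:**
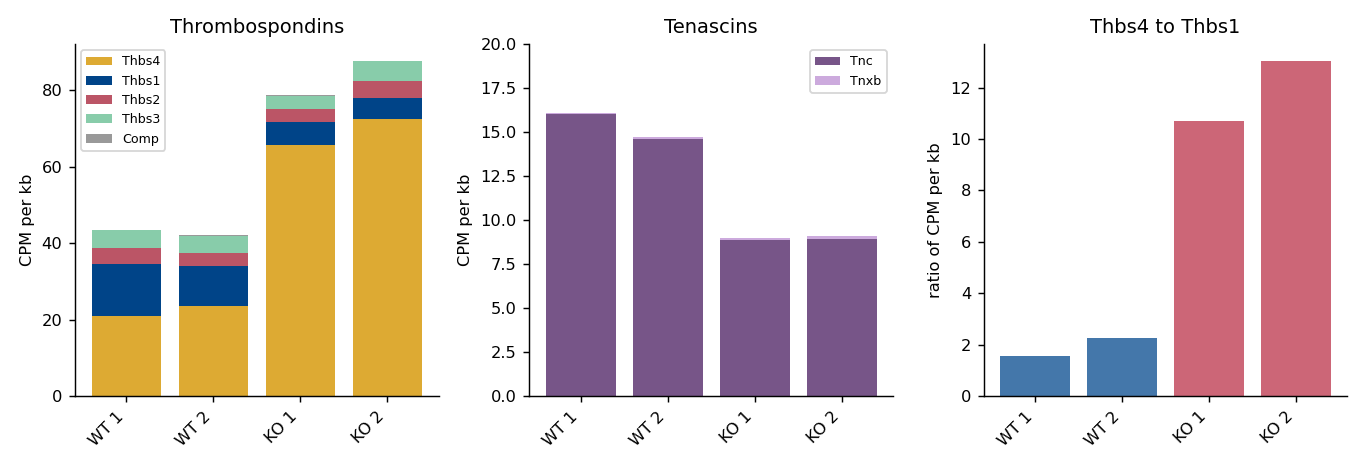
Stacked levels of the thrombospondins (left) and tenascins (middle) in CPM per kb, and the ratio of Thbs4 to Thbs1 per length (right, bars from 0), in each library (KO, Esr2-KO). The ratio was 1.57 and 2.28 in WT against 10.7 and 13.0 in Esr2-KO, and Tnc made up nearly all of the tenascin level.

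Tnc, tenascin C, carried 4128 and 3608 counts in WT against 2156 and 1671 in Esr2-KO. The levels were 114 and 104 CPM in WT against 63.0 and 63.4 CPM in Esr2-KO. The groups did not overlap, and both Esr2-KO libraries were nearly equal. The mean fell from 109 ± 7.04 CPM to 63.2 ± 0.248 CPM (SD, n = 2 each), a ratio of 0.582, with a log2 fold change of -0.78 ± 0.11 (SE) and an edgeR adjusted p of 0.0265. Without WT 1 the value was -0.71 and the call ended (edgeR adjusted p = 0.0997). Tnc (chromosome 4, 63959785 to 64047015, minus strand) shares 176 exon bases, or 2.26%, with 8030451A03Rik on the opposite strand.

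Tnxb, the other tenascin, was counted only 40 and 55 times in WT and 48 and 56 times in Esr2-KO. Its levels of 1.10 and 1.58 CPM in WT against 1.40 and 2.12 CPM in Esr2-KO overlapped, with a log2 fold change of 0.39 ± 0.43. Tnc and Postn, which often lie in the same matrix, did not keep a fixed proportion. The ratio of Tnc to Postn per length was 0.121 and 0.116 in WT against 0.0641 and 0.0698 in Esr2-KO.

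Postn and Sparc, the abundant members, differed little. Postn stood at 423 and 403 CPM in WT against 442 and 408 CPM in Esr2-KO, with overlapping groups and a log2 fold change of 0.04 ± 0.15, and turned to -0.12 with library totals and to -0.015 without Esr2-KO 1. Sparc stood at 576 and 609 CPM in WT against 646 and 665 CPM in Esr2-KO. Both Esr2-KO libraries were above both WT libraries, as happened in 1 direction or the other for 54.7% of all tested genes, and Sparc did not pass (0.15 ± 0.16, edgeR adjusted p = 0.661, and -0.020 with library totals). Of the 10 genes 5 had groups that did not overlap, namely Thbs1, Thbs4, Tnc, Sparc and Spp1.

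**Figure D3:**
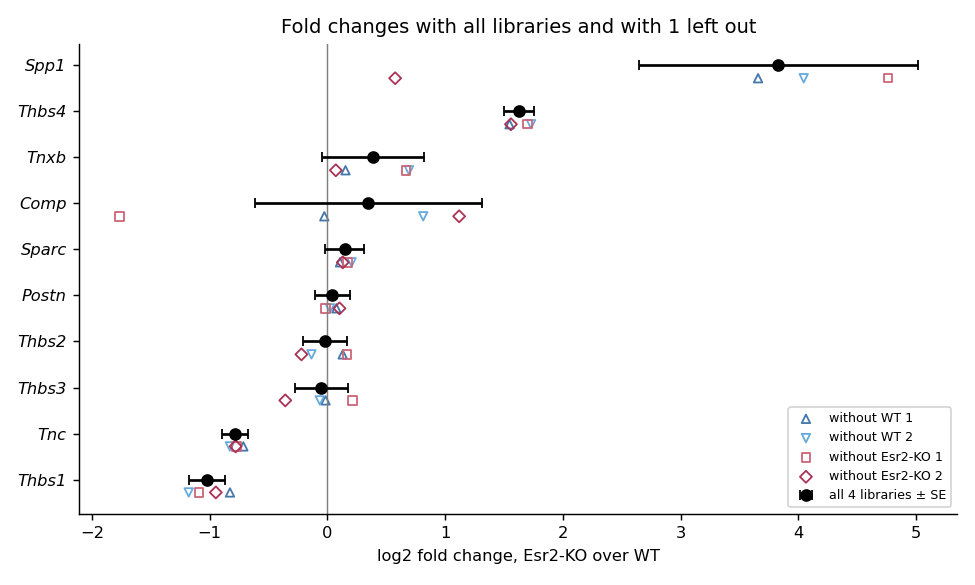
Log2 fold change of Esr2-KO over WT for the 10 genes with all 4 libraries (black, bars are SE) and with each library left out (open symbols). Thbs4, Thbs1 and Tnc kept their direction in each of the 4, Spp1 moved from 3.83 to 0.58 without Esr2-KO 2, and Comp spread from -1.77 to 1.12.

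Spp1, osteopontin, a secreted ligand of integrins and CD44 made by macrophages and by duct epithelium, was set by 1 library. It had 30 and 37 counts in WT, 48 in Esr2-KO 1 and 676 in Esr2-KO 2, or 0.826, 1.06, 1.40 and 25.6 CPM. Esr2-KO 2 was 18.3-fold above Esr2-KO 1. The log2 fold change of 3.83 ± 1.19 did not pass (edgeR adjusted p = 0.141) and was 0.58 ± 0.58 without Esr2-KO 2 (0.748). It passed with library totals (3.54, adjusted p = 0.0465), with no low-count filter (3.84, 1.82e-04) and without Esr2-KO 1 (4.76, 3.51e-06), in each of which Esr2-KO 2 stayed in. Spp1 also shares 309 exon bases, or 18.8%, with Gm42793 on the same strand.

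Esr2-KO 2, the library with the high level of Spp1, was also by far the highest in pancreatic transcripts, which Esr2-KO 1 held at a lower level. The elastase Cela2a stood at 11.1 and 2.76 CPM in WT, 83.2 in Esr2-KO 1 and 43695 in Esr2-KO 2. Set beside the mean of both WT libraries on the log2(CPM + 0.5) scale, the median acinar gene stood 2.50 above it in Esr2-KO 1, while Esr2-KO 2 stood 11.03 above. Of 27 tested acinar genes all 27 had positive log2 fold changes and 25 had an unadjusted p under 0.05. DESeq2 called 25, limma-voom 2 and edgeR 1, which was Spink1 (1.30 ± 0.16, edgeR adjusted p = 0.0204), a call that ended without WT 1. Spink1 stood at 120 and 138 CPM in WT against 285 and 349 in Esr2-KO, without the wide gap between the Esr2-KO libraries seen for Cela2a. The summed level of the acinar genes was 7866 to 9124 CPM in the other libraries, where Zg16 and Klk1 made up most of it, and 261580 CPM in Esr2-KO 2. Of 7 tested duct markers, which colon epithelium shares in part, 0 passed in edgeR or limma-voom and 1 in DESeq2, while 2 had an unadjusted p under 0.05. The list summed to 2046 and 1812 CPM in WT against 2320 and 2479 in Esr2-KO, and without Krt19, the most abundant, to 313 and 295 against 291 and 316 CPM. Of these 7 markers, 5 had positive and 2 negative log2 fold changes. Among them the chloride channel gene Cftr was at 120, 109, 93.3 and 77.8 CPM, lowest in Esr2-KO 2, and did not pass (-0.42 ± 0.13, edgeR adjusted p = 0.145). The apical mucin Muc1, named after its values were seen, was at 11.6, 5.03, 9.68 and 35.2 CPM. Macrophage and platelet markers summed to 709, 734, 729 and 647 CPM. Without Lyz2, the most abundant of them, the sums were 377, 373, 377 and 376 CPM. Cd68 (11.6, 11.7, 16.1 and 18.0 CPM) and Csf1r (43.8, 52.0, 55.9 and 63.9 CPM) were highest in Esr2-KO 2. Adgre1 (30.7, 25.8, 23.0 and 18.0 CPM), Lyz2 (332, 361, 352 and 271 CPM) and C1qa (82.9, 84.6, 88.1 and 79.1 CPM) were lowest there. Of the 9 tested genes of this list, 4 had positive log2 fold changes and 5 negative. Without Esr2-KO 2 the log2 fold changes of Thbs4, Thbs1 and Tnc were 1.56, -0.95 and -0.78. With the acinar genes left out before scaling these 3 genes were called, at 1.64, -1.01 and -0.77. That step changes the scaling and does not remove other pancreatic RNA. Esr2-KO 1, with acinar transcripts above WT, stayed in both fits. The part of pancreatic tissue in the levels of Spp1, Thbs4, Thbs1 and Tnc was not tested.

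**Figure D4:**
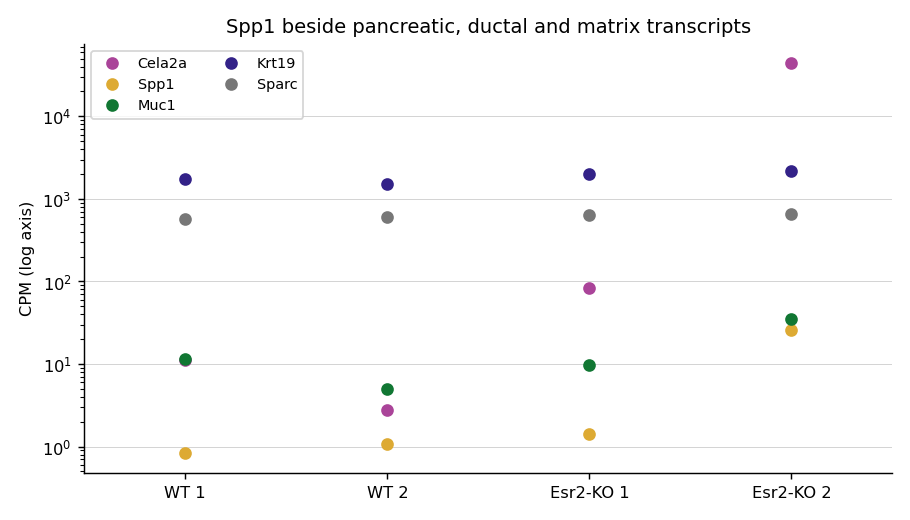
CPM on a log axis, per library, of Spp1, the pancreatic elastase Cela2a, the epithelial genes Krt19 and Muc1 and, for scale, Sparc. Krt19 and Muc1, both highest in Esr2-KO 2, are a selection from the duct list, in which Cftr (not drawn) was lowest there. Spp1 stood at 1.40 and 25.6 CPM in the Esr2-KO libraries, Cela2a at 83.2 and 43695 CPM and Sparc at 646 and 665.

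Related matrix genes were examined from 4 lists of relatives, receptors, TGF-β activators and fibre-forming partners. Of 80 such genes tested 2 passed, or 2.50%, with a median log2 fold change of 0.13 against 0.00 over all tested genes. An unadjusted p under 0.05 in edgeR was found for 22 of the 80 and for 20.6% of all tested genes (3535 of 17169). Such counts in the lists above and below are read against that share. Among 17 matricellular relatives 3 had an unadjusted p under 0.05, and 1 was higher, Smoc2, a SPARC-related calcium-binding protein of the crypt base (30.4 and 29.8 CPM in WT, 48.1 and 45.8 in Esr2-KO, 0.64 ± 0.12, edgeR adjusted p = 0.0476). Its call ended with upper-quartile factors (0.0528), with library totals (0.265), with the replicate block (0.0865) and without WT 1 (0.219), WT 2 (0.150) or Esr2-KO 2 (0.0570). The median of that list was 0.06. Nov, a CCN family member chosen for mention after its values were seen, had 380 and 141 CPM in WT against 81.1 and 19.2 in Esr2-KO, short of the threshold (-2.37 ± 0.71, edgeR adjusted p = 0.132), but was called with library totals, no low-count filter, the replicate block and without Esr2-KO 1.

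Among 23 receptors and binding partners 7 had an unadjusted p under 0.05, DESeq2 called 2, and 1 was lower in edgeR, Cd44, a receptor of hyaluronan and osteopontin (65.2 and 63.5 CPM in WT, 38.0 and 30.6 in Esr2-KO, -0.91 ± 0.14, edgeR adjusted p = 0.0305). That call ended without WT 1 (0.129) or without WT 2 (0.0806), and the median of the list was -0.02. The thrombospondin receptors Cd36 (34.3 and 69.4 CPM in WT, 55.9 and 31.9 in Esr2-KO, -0.24 ± 0.37) and Cd47 (40.9 and 48.1 against 39.7 and 34.5, -0.26 ± 0.14) did not pass.

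Of 18 genes of TGF-β activation and signalling 0 passed in edgeR or limma-voom and 3 in DESeq2, while 6 had an unadjusted p under 0.05 in edgeR. The median was 0.20, with 14 of 18 positive, and the smallest p-values belonged to the signal transducers Smad2 (0.63 ± 0.13, edgeR adjusted p = 0.0596) and Smad4 (0.52 ± 0.11, 0.0630). Tgfb1 stood at 16.6 and 18.3 CPM in WT against 23.9 and 21.2 in Esr2-KO, short of the threshold (0.37 ± 0.15, 0.234). Of 22 genes of collagen fibre assembly 0 passed in edgeR, 1 in limma-voom and 3 in DESeq2, and 6 had an unadjusted p under 0.05 in edgeR. That list had a median of 0.19. Lox, which cross-links collagen, was at 15.4 and 14.8 CPM in WT against 8.33 and 6.49 in Esr2-KO (-1.03 ± 0.20, edgeR adjusted p = 0.0554), and passed with library totals (0.0402), limma-voom (0.0487), DESeq2 (0.00127), no low-count filter (0.00386), the acinar genes left out (0.0472) and without Esr2-KO 1 (0.00971). Fn1, fibronectin, was at 175 and 213 against 277 and 328 CPM (0.64 ± 0.16, 0.0922).

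**Figure D5:**
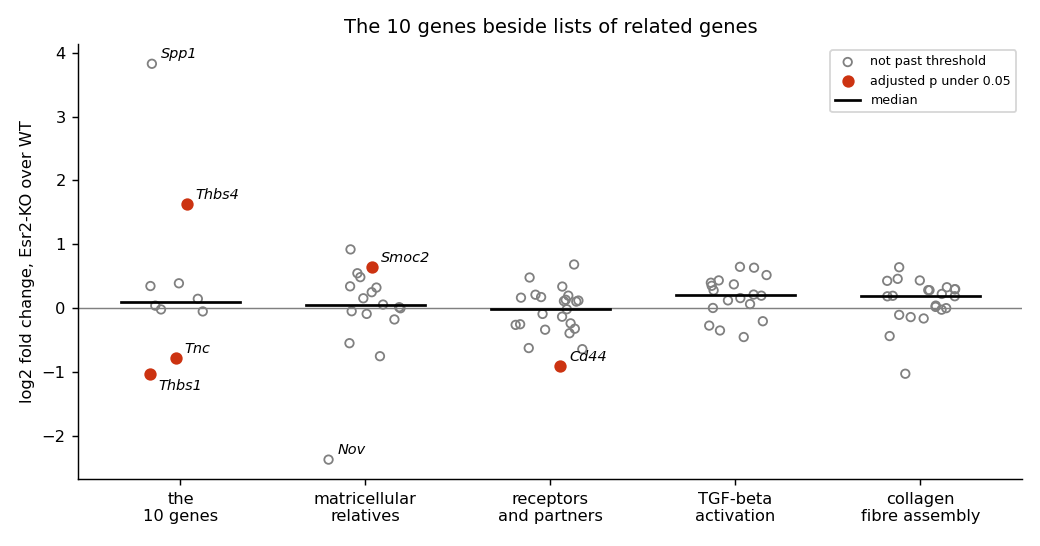
Log2 fold change of Esr2-KO over WT for the 10 genes and for 4 lists of related genes (each point 1 gene, red past an adjusted p of 0.05 in edgeR, black lines medians, horizontal position within a list arbitrary). Outside the 10 genes, Smoc2 and Cd44 passed, and the list medians lay between -0.02 and 0.20.

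Colon as a whole was sampled, so fewer cells of a type and less RNA per cell cannot be told apart. Markers of the cells that make matricellular proteins moved as follows, and their part in the values above was not tested. Fibroblast markers summed to 1783 and 1801 CPM in WT against 2040 and 2177 in Esr2-KO. Gsn, the most abundant of them (565 and 649 against 903 and 1054 CPM), set that direction, since without it the sums were 1219 and 1152 against 1137 and 1122 CPM. Log2 fold changes were positive for 6 of the 10 and negative for 4, namely Dcn, Lum, Dpt and Pdgfra, with 6 at an unadjusted p under 0.05, 3 called by DESeq2 and 0 by limma-voom. In edgeR 1 of the 10 was higher, Pi16, a marker of adventitial fibroblasts (5.09 and 5.17 CPM against 13.0 and 26.4, 1.94 ± 0.34, edgeR adjusted p = 0.0424), a call that ended with limma-voom (0.0646) and without WT 1 (0.155) or WT 2 (0.112). Smooth muscle and pericyte markers summed to 6935 and 5426 CPM in WT against 5267 and 6577 in Esr2-KO, with overlap. Of 12 tested, 6 had positive and 6 negative log2 fold changes, 2 had an unadjusted p under 0.05, 2 passed in DESeq2 and 1 in limma-voom. In edgeR 1 was lower, the pericyte marker Rgs5 (443 and 400.4 CPM against 171 and 141, -1.44 ± 0.16, edgeR adjusted p = 0.0196). Other pericyte markers of the list, Pdgfrb (0.20 ± 0.15), Notch3 (0.08 ± 0.19) and Cspg4 (-0.13 ± 0.25), did not pass.

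In 5 further lists 0 genes passed in edgeR or limma-voom. Endothelial markers summed to 225 and 240 CPM in WT against 262 and 260 in Esr2-KO, with 1 of 9 at an unadjusted p under 0.05 and 1 called by DESeq2, and Tie1 (0.54 ± 0.14) and Lyve1 (0.19 ± 0.11) had the smallest p. For the macrophage and platelet list summed above, 2 of 9 tested had an unadjusted p under 0.05 and 0 passed in DESeq2, with Cd68 (0.55 ± 0.17) and Adgre1 (-0.46 ± 0.18) first. The platelet genes Ppbp and Gp1bb had no count in any library, and Pf4 reached at most 0.146 CPM. Cartilage, tendon and striated muscle markers summed to 28.3 and 33.6 CPM in WT against 21.7 and 23.1 in Esr2-KO, and without Ckm, the most abundant, to 9.11 and 18.5 against 10.9 and 8.42 CPM, with 1 of 7 tested at an unadjusted p under 0.05 and 0 in DESeq2. Scx (-1.24 ± 0.47) and Acta1 (-1.19 ± 0.54) led it, and the skeletal muscle gene Ckm was at 19.2 and 15.1 against 10.8 and 14.7 CPM. Of the 7 tested, 3 had positive and 4 negative log2 fold changes, the positive ones being Chad, Tnnt3 (0.93 ± 0.51) and Myl1 (0.32 ± 0.61).
Mesothelial and adipocyte markers summed to 159 and 308 CPM in WT against 305 and 98.9 in Esr2-KO, with 0 of 9 at an unadjusted p under 0.05 and 0 in DESeq2, Lrrn4 (-0.97 ± 0.43) and Upk3b (-0.53 ± 0.35) leading. Enteric glia and neuron markers summed to 75.7 and 67.9 CPM in WT against 53.0 and 50.3 in Esr2-KO, all 8 with negative log2 fold changes, 3 at an unadjusted p under 0.05 and 1 called by DESeq2, with Gfap (-1.46 ± 0.43) and Ret (-0.53 ± 0.19) first.

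The genes whose profile over the 4 libraries lay nearest to the 3 called members were found among 11672 genes by Euclidean distance between centred log2(CPM + 0.5) values. With 4 libraries many genes lie close, so the names are a description. Nearest to Thbs4 were the vitamin transporter Slc5a6 (distance 0.125, 9.64 and 11.2 CPM in WT, 29.5 and 31.4 in Esr2-KO), the pseudogene Gpr137b-ps (0.142) and the antioxidant enzyme Prdx6 (0.168, 935 and 1097 against 2975 and 3730 CPM). Nearest to Thbs1 were the monocarboxylate transporter Slc16a7 (0.0492), the hedgehog co-receptor Boc (0.0535, 57.3 and 42.9 against 24.9 and 22.7 CPM) and Zfand2a (0.0651). Nearest to Tnc were Naip3 (0.0574), the mitotic kinase Aurkb (0.0688, 21.5 and 18.7 against 11.5 and 11.1 CPM) and Zfp462 (0.0707). Of these, Naip3 (edgeR adjusted p = 0.0872), Aurkb (0.0576) and Zfp462 (0.0839) all missed the threshold, which the neighbours of Thbs4 and Thbs1 passed. Gpr137b-ps and Naip3 have near-identical relatives, so that their counts are uncertain.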

How the data were processed

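RNA of colon was sequenced after ribosomal RNA depletion with a directional NEBNext Ultra kit, per the labels' protocols. The authors deposited raw counts for each gene symbol. Their values are whole and the library totals differ, so no scaling had been applied. Reads were aligned with HISAT2 to mm10, per the submitters' processing notes, while for the counting program, the annotation and the use of strand the sources used here give nothing. Groups and replicates follow the sample titles, and every column of the table was used.

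Genes were kept with filterByExpr (minimum count 10, minimum total 15) and scaled by TMM. All 17169 were then tested by edgeR's quasi-likelihood F test (edgeR 4.0.16, R 4.3.3, two-sided, 2 residual degrees of freedom) with Benjamini-Hochberg adjustment and a threshold of 0.05. Standard errors came from the coefficient and the F statistic. limma 3.58.1 (voom) and DESeq2 1.42.0, the latter on all genes with a count, were alternatives, as were other scalings, no filter, a replicate block, leaving out acinar genes and leaving out each library, where the lone library of a genotype is assumed to vary like the other pair. Lengths, coordinates and overlaps came from GENCODE M21 (GRCm38). The libraries of a genotype differed by far more than sampling noise (chi-square per degree of freedom 42.7 for WT and 519 for Esr2-KO). Acinar genes, with 22.4% of the counts of Esr2-KO 2 against 0.946% of those of Esr2-KO 1, were included. Their part in the value of 519 was not computed, so it does not measure general scatter alone. Depth gave 3 counts, the floor for a count of 0, a value of 0.0826 to 0.114 CPM, and this covers counting error only. Tested on counts simulated for this comparison over 16863 genes, the procedure called 41% of genes changed 2-fold and 93% of those changed 4-fold, and 25 of its 159 calls were unchanged genes. The changed genes were drawn from above a minimum mean level that Comp and Esr2 do not reach. Every simulated library shared the same base level of each gene, so none was set apart like Esr2-KO 2. The recovered shares do not cover such low genes or such a library.

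The members and lists were chosen with earlier results of these data known. Genes named were the 10, Esr2, up to 4 called genes of each list or else the 2 with the smallest p, and the 3 nearest profiles of each called member among genes of at least 2 log2 CPM, predicted genes left out. A gene that this rule names in the duct list is not reported here. Other genes were named to give a receptor, a ligand or the level of a cell type and were chosen after their values were seen.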

Additional observations from a re-analysis of the deposited data

How the results depend on the processing

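The calls of Thbs4, Thbs1 and Tnc held under DESeq2 size factors, upper-quartile factors, library totals, no low-count filter, DESeq2, limma-voom and without the acinar genes. Of 17169 genes tested 462 were called, and 695 with library totals. With no filter 1916 of 25515 genes were called, and 1682 with DESeq2, which was also run on those 25515 and so changed both the filter and the test. The related genes called numbered 2 of 80, and 1 with upper-quartile factors, 9 with no filter and 9 with DESeq2. When 1 library was left out, the counts ran from 165 (without WT 1) to 1804 (without Esr2-KO 1) for all genes, from 1 (Thbs4, without WT 1) to 4 (Spp1 added, without Esr2-KO 1) for the 10 genes and from 0 to 10 for the related genes. Of the related genes, 12 without WT 1 and 20 without WT 2 had an unadjusted p under 0.05 in edgeR where 0 passed. Of the 165 genes 111, and of the 1804 genes 461, were among the 462. Directions turned for Postn (-0.12) and Sparc (-0.020) with library totals and for Comp (-0.076) with limma-voom. They also turned without WT 1 for Thbs2 (0.13), Comp (-0.03) and Esr2 (0.04), and without Esr2-KO 1 for Thbs2 (0.17), Thbs3 (0.21), Comp (-1.77), Postn (-0.015) and Esr2 (0.35). Over the 4 fits that each left out 1 library, Thbs2 ran from -0.22 to 0.17, Thbs3 from -0.36 to 0.21, Comp from -1.77 to 1.12, Postn from -0.015 to 0.10 and Esr2 from -1.42 to 0.35. With the replicate number as a block, 490 genes, the same 3 of the 10 and 2 related genes (Cd44 and Nov) were called, with Thbs4 at 1.63, Thbs1 at -1.01 and Tnc at -0.78. Libraries of the same number did not deviate together (correlation of deviations -0.08 over 17169 genes). With 2 libraries per genotype, and with Esr2-KO 2 set apart by acinar genes, this value does not tell whether the numbers mark a pairing. The cause of these shifts was not tested, and no difference of Comp, Tnxb or Esr2 was detectable at this depth.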
